A study of Mus musculus with 25 samples.

Results

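The genes described here encode the proteasome, its activators, its inhibitor and the chaperones that assemble it. They were chosen by name, as every symbol of the Psma, Psmb, Psmc, Psmd, Psme, Psmf and Psmg series, with the brightest named probe set standing for a gene with several. The rule found 45 of the 17097 genes named on the array. Psmc6, Psmd10 and Psme4 have no named probe set in the annotation used and were not analysed here. Of the 45 genes, 43 passed the filter on dim genes and were tested. The remaining pair were dim: Psma8, a core subunit known from the testis, averaged between 3.54 and 4.61 in the 6 groups on the log2 scale, and Psmb11, a core subunit known from thymic epithelium, averaged between 3.27 and 3.60, against a filter limit of 4.60.

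The study measured polysomal RNA of mouse kidney podocytes, the epithelial cells that wrap the glomerular capillaries, on 25 arrays. All mice carried Tg:Col1a1-eGFPL10a, a fusion of eGFP and the ribosomal protein L10a under the collagen1α1 promoter, on the strain background C57/129sv, so that tagged ribosomes could be pulled down with the RNA they were translating (TRAP). KI mice carried in addition 1 Actn4tm1.1Plk allele, a point mutation knocked into the gene of alpha-actinin-4, an actin crosslinker of podocyte foot processes, and WT mice did not. The groups were KI (4 arrays) and WT (4 arrays) at 2 weeks, KI (4) and WT (5) at 5 weeks, and KI (4) and WT (4) at 44 weeks, and arrays are called by the number in their title. The sex is given as unknown. The labels do not say whether arrays came from separate animals, so p-values measure only the spread between these arrays. RNA was isolated wherever the collagen promoter drove the tag, and a lower signal from fewer cells of a type cannot be told apart from less RNA per cell.

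The proteasome degrades proteins tagged with ubiquitin. Its core is a barrel of alpha and beta rings, and a few beta subunits cut the substrate. A cap on either end holds a base, whose ring of ATPases unfolds the substrate and feeds it into the core, and a lid, which removes the ubiquitin chain. Interferon induces alternative catalytic subunits that replace the standard ones and form the immunoproteasome. Podocytes live long and divide rarely, and mutant alpha-actinin-4 proteins have been described to aggregate and to be degraded quickly.

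Podocyte markers were bright: 11 of 14 had a named probe set, all 11 passed the filter, and their mean lay between 10.99 and 11.78 on every array. No array of whole kidney was at hand, so enrichment for podocytes was not tested. Markers of other kidney cells were also above the filter limit, 11 of 12 proximal tubule genes, 13 of 13 of the loop, distal tubule and collecting duct, 13 of 13 endothelial, 14 of 15 leukocyte and 8 of 8 mesangial and smooth muscle genes. These 5 lists were brighter in KI than in WT at 5 weeks by 0.56 to 0.88 on the log2 scale. Their adjusted p was 0.10 each (exact two-sided permutation tests, 33 tests, with unadjusted p between 0.016 and 0.032). The WT arrays of 5 weeks differed among themselves and from the KI arrays of that age. The 3′ minus 5′ signal of the Gapdh control, a measure of RNA integrity and amplification, lay between 1.28 and 1.67 on the 4 KI arrays of 5 weeks. It was 0.98, 1.03, 1.03 and 1.15 on WT arrays 6, 7, 8 and 9, and 1.91 on WT array 10. WT array 9 lay within the ranges of KI at 2 weeks (1.06 to 1.45) and 44 weeks (1.08 to 1.65). WT arrays 6, 7 and 8 lay below every other array of the series. The same measure of the beta-actin control went the other way, with 0.99 to 1.33 on the KI arrays of 5 weeks and 1.47 to 1.63 on the 5 WT arrays, array 10 included (difference -0.35, exact permutation p = 0.0079, adjusted p = 0.10). The part of the beta-actin control in the results was not tested. Groups also differed at 2 weeks. The Gapdh measure was 1.06 to 1.45 in KI and 1.55 to 1.84 in WT (difference -0.44, exact permutation p = 0.029, adjusted p = 0.10). Podocyte markers then differed by -0.18 (exact permutation p = 0.029, adjusted p = 0.10). The 5 lists of other cells differed by 0.10 to 0.52 at 2 weeks and by 0.00 to 0.41 at 44 weeks, with adjusted p of 0.17 or more. Y-linked genes were bright on 1 of 4 KI and 4 of 4 WT arrays at 2 weeks, on 3 of 4 KI and 2 of 5 WT arrays at 5 weeks, and on 3 of 4 KI and 1 of 4 WT arrays at 44 weeks.

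Between the KI and WT arrays, some proteasome genes passed the test at 5 weeks and none passed at 2 or 44 weeks. A difference of the KI effect between ages was not shown, as described below. With tubule markers as a covariate 0 of 43 members passed at 5 weeks. At 5 weeks 16 of 43 members passed the test, a limma fit over all arrays with an adjusted p under 0.05, of which 12 were higher and 4 lower in KI. Of all 11968 genes tested, 22% passed in the same comparison, 14.3% as higher and 7.75% as lower. Every KI array lay above every WT array for 4 members (7.09% of all genes) and below every WT array for 3 (4.88%). The median difference of the 43 members was 0.10, against 0.06 over all genes. Leaving out WT arrays 7, 8 and 9, which leaves 2 WT arrays, gave 0 calls, with differences that shrank for some members and not for others, as described after the classes.

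At 2 weeks limma called 0 of 43 members, against 0% of all genes, and 2 members had an unadjusted p under 0.05, against 5.12% of all genes. The smallest p belonged to Psmd11, described with the lid, to the alpha subunit Psma4 with 0.24 ± 0.11 (adjusted p = 0.89) and to Psmg2 with 0.15 ± 0.12 (adjusted p = 0.90). At 44 weeks limma called 0 of 43, against 0.0251% of all genes (0.0167% as higher and 0.00836% as lower), and 3 members had an unadjusted p under 0.05, against 6.37%. At this age the groups did not overlap for 1 member as higher, Psmd5 with 0.19 ± 0.10, and for 2 as lower, against 1.43% and 1.31% of all genes.

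Whether the KI effect differed between ages was tested with interaction terms. For 5 against 2 weeks limma called 0 of 43 members, with 13 at an unadjusted p under 0.05, against 0.0251% and 18.7% of all genes. The members of smallest p were Psmb10 with 0.98 ± 0.29, Psmc3 with 0.53 ± 0.16 and Psmc4 with 0.53 ± 0.16 (adjusted p = 0.11 each). For 44 against 5 weeks it called 0 of 43, with 19 at an unadjusted p under 0.05, against 0% and 19.5% of all genes. The members of smallest p were Psmd9 with -1.04 ± 0.25 (adjusted p = 0.097), Psmb10 with -1.14 ± 0.29 (adjusted p = 0.098) and Psmb2 with -0.71 ± 0.21 (adjusted p = 0.11). A difference of the KI effect between ages was therefore not shown for any member in this fit. With array weights 15 and 18 members passed the interaction tests, and without WT array 10 of 5 weeks 13 and 16. The shares over all genes in these refits are not given here, so the counts do not single out proteasome genes.

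**Figure D1:**
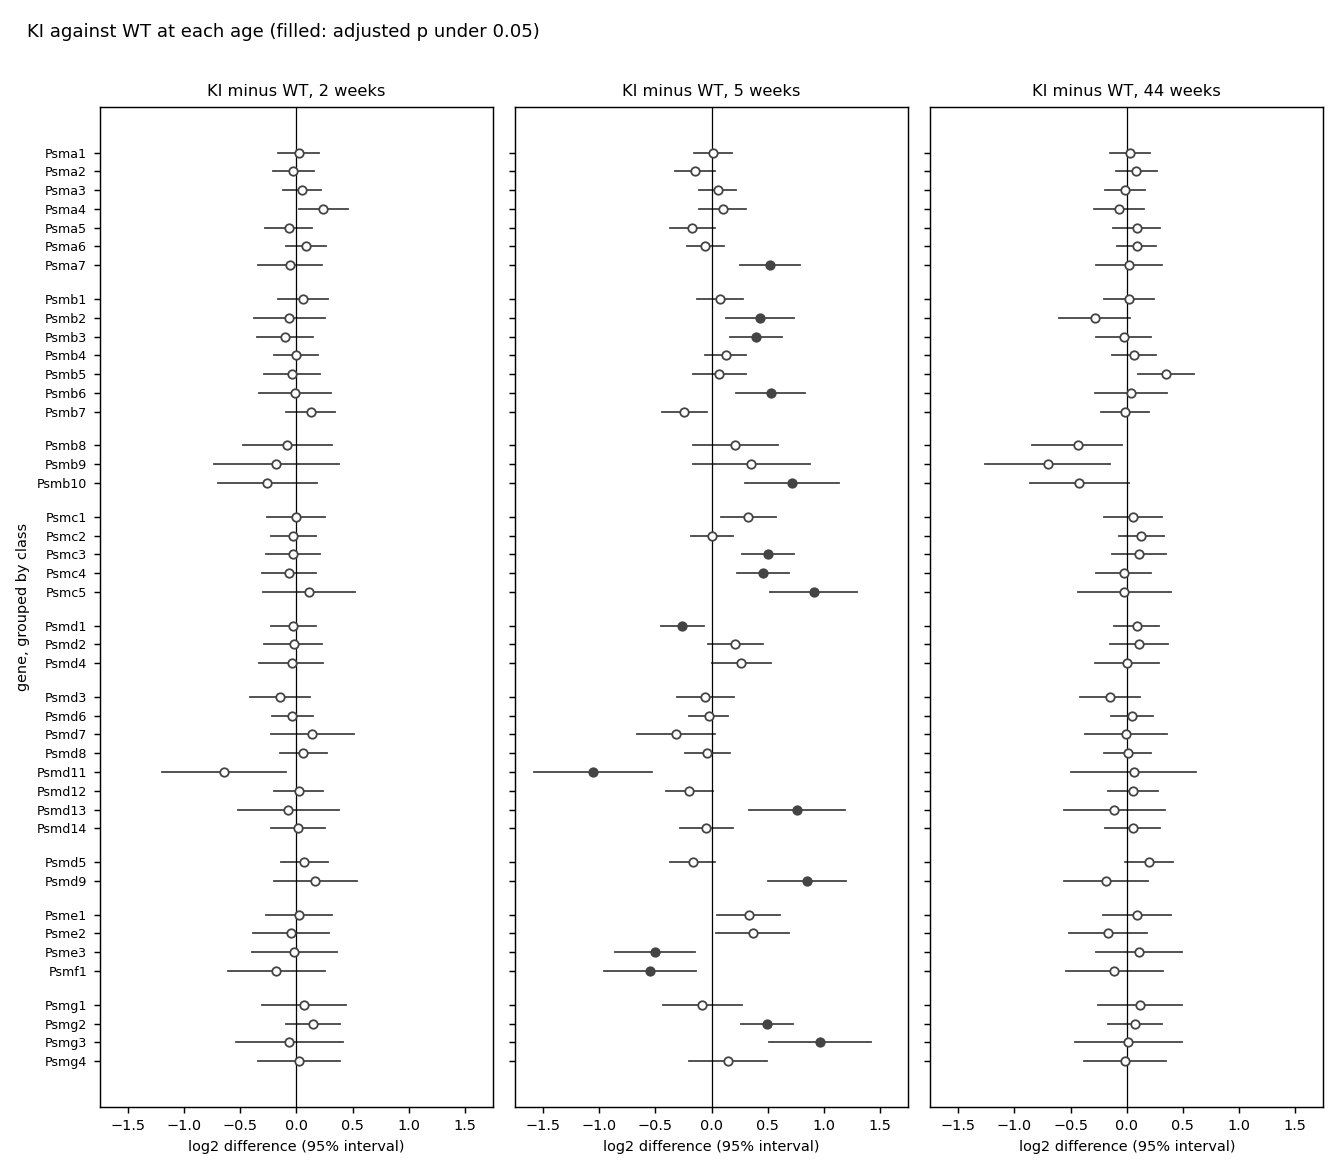
Log2 difference of KI minus WT (x axis) for the 43 tested proteasome genes, grouped by class down the page, at 2, 5 and 44 weeks. Points are limma estimates, lines their 95% intervals, and filled points passed at an adjusted p under 0.05. The 16 filled points all lie in the middle panel.

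Of the 5 cap ATPases tested, 3 were higher in KI at 5 weeks, against 14.3% of all genes. Their share was the largest of any class, but the classes are small, and 2 of 4 core assembly chaperones were higher. Psmc6 had no named probe set. Psmc5, an ATPase of the cap base, had 9.98, 9.93, 9.81 and 10.07 on KI arrays 23 to 26, against 8.83, 8.56, 8.96, 8.87 and 9.97 on WT arrays 6 to 10 (log2 signal). The 4 KI arrays and WT array 10 lay together, and WT arrays 6 to 9 lay below all of them. The difference was 0.91 ± 0.19 (log2, SE, adjusted p = 0.0037), which is 1.87-fold. Psmc3, another ATPase of the ring, was 11.56, 11.49, 11.58 and 11.64 in KI, against 10.84, 10.91, 11.06, 10.98 and 11.56 in WT. Again WT array 10 stood within the KI range (0.50 ± 0.11, adjusted p = 0.0050). Psmc4 was 11.57, 11.55, 11.47 and 11.46 in KI, against 11.04, 10.75, 11.12, 10.99 and 11.36 in WT, and here the groups did not overlap (0.46 ± 0.11, adjusted p = 0.0080). In a fit over all probe sets, used for the further probe sets of a gene throughout, a second bright probe set of Psmc4 gave 0.64 with an adjusted p of 0.0047. Psmc1 differed by 0.32 ± 0.12 (adjusted p = 0.052) and Psmc2 by 0.01 ± 0.09 (adjusted p = 0.96). At 2 and 44 weeks the 5 ATPases differed by -0.07 to 0.13.

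Psmc4 and Psmd8, a lid subunit, lie on chromosome 7 as Actn4 does, with 37 and 7 protein-coding genes between them and Actn4 in the RefSeq annotation. Psmd8 differed between KI and WT by 0.06, -0.04 and 0.01 at 2, 5 and 44 weeks, with a 95% interval of -0.24 to 0.16 at 5 weeks.

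**Figure D2:**
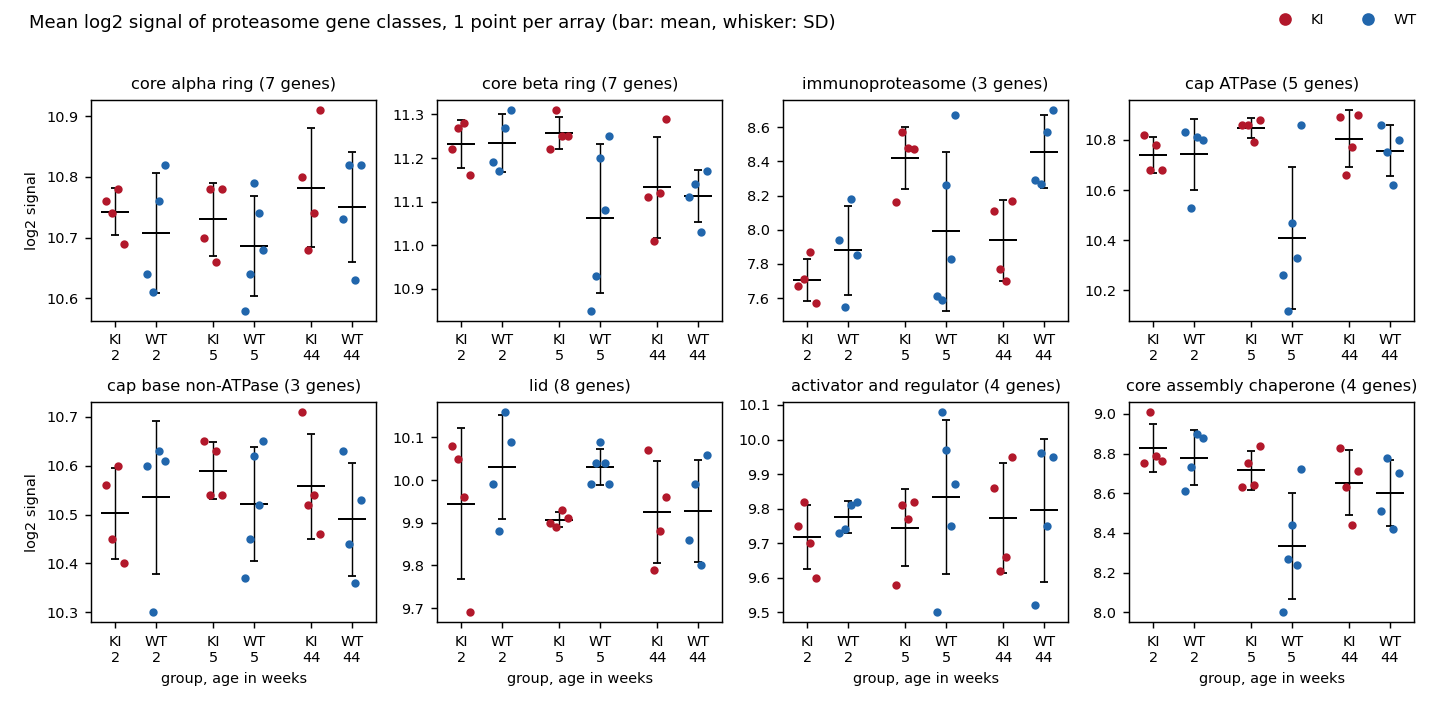
Mean log2 signal of each class of proteasome genes (y axis) in the 6 groups (x axis), 1 point per array, with the group mean as a bar and the SD as a whisker. The cap ATPases lie between 10.79 and 10.88 on the KI arrays of 5 weeks and between 10.12 and 10.47 on WT arrays 6 to 9, while WT array 10 lies at 10.86.

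The core showed a mixed picture. Of the alpha ring, 1 of 7 members passed at 5 weeks, as higher in KI. That is 14.3% of the class, the same share as over all genes. Psma7 was 10.89, 10.93, 10.98 and 10.96 in KI, against 10.12, 10.09, 10.56, 10.42 and 10.92 in WT (0.52 ± 0.13, adjusted p = 0.010). WT array 10 again fell inside the KI range and the other 4 WT arrays below it, and a second probe set gave 0.58 (adjusted p = 0.0082). The other 6 alpha genes differed by -0.17 to 0.10. Of the beta ring, 3 of 7 members passed, and all 3 were higher in KI, against 14.3% of all genes. Psmb6, the standard caspase-like catalytic subunit, had 11.80, 11.81, 11.92 and 11.63 in KI, against 11.03, 10.94, 11.45, 11.14 and 11.76 in WT (0.52 ± 0.15, adjusted p = 0.018). Psmb3, a structural subunit, was higher by 0.39 ± 0.11 (adjusted p = 0.019), and its second probe set by 0.73. Psmb2, also structural and called but outside the rule for naming genes in this comparison, differed by 0.43 ± 0.14 (adjusted p = 0.036). The other catalytic pair did not pass. Psmb5, the standard chymotrypsin-like subunit, differed by 0.07 ± 0.12 (95% interval -0.17 to 0.31, adjusted p = 0.69), and Psmb7, the trypsin-like subunit, by -0.24 ± 0.10 (adjusted p = 0.076). Psmb7 ranged from 10.75 to 11.05 on the KI arrays, and was level on WT arrays 6 to 9 (11.24, 11.24, 11.22 and 11.24) and lower on WT array 10 (10.87).

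Among the interferon-induced catalytic subunits, Psmb10, which replaces Psmb7, passed at 5 weeks. It had 9.28, 9.39, 9.47 and 9.47 in KI, against 8.42, 8.38, 8.75, 8.22 and 9.67 in WT (0.72 ± 0.20, adjusted p = 0.017). WT array 10 was the brightest of all 9 arrays and WT arrays 6 to 9 were the dimmest. Psmb8, which replaces Psmb5, differed by 0.21 ± 0.18 (adjusted p = 0.41), and Psmb9, which replaces Psmb6, by 0.35 ± 0.25 (adjusted p = 0.31). Of 16 tested genes of the interferon and MHC class I list, 1 passed at 5 weeks as higher in KI and 0 as lower. The shares over all genes were 14.3% and 7.75%, and the median of the 16 was -0.15, against 0.06 over all genes. The gene that passed was Irf7, an interferon-induced transcription factor, with 1.02 ± 0.26 (adjusted p = 0.010).

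At 44 weeks the 3 immunoproteasome genes had negative differences and none passed. Psmb9 was 8.06, 7.89, 7.52 and 8.11 on the KI arrays, against 8.27, 8.40, 8.73 and 8.99 on the WT arrays (-0.70 ± 0.27, 95% interval -1.26 to -0.15, adjusted p = 0.70). Psmb10 was 8.83, 8.44, 8.64 and 8.94 in KI, against 8.99, 9.06, 9.01 and 9.49 in WT (-0.42 ± 0.21, adjusted p = 0.81). In both genes every KI array lay below every WT array, the 2 members counted above. Psmb8 was 7.43, 6.97, 6.94 and 7.48 in KI, against 7.61, 7.36, 7.96 and 7.63 in WT, with overlap (-0.44 ± 0.19, adjusted p = 0.75). With array weights, limma called 2 of the 3, Psmb9 at -0.95 ± 0.24 (adjusted p = 0.042) and Psmb10 at -0.62 ± 0.15 (adjusted p = 0.040). In that fit WT array 18, the brightest of this age for both genes, had a weight of 2.741. WT arrays 15, 16 and 17 had weights of 0.37, 1.013 and 0.698. The other bright probe sets of Psmb9 differed by -0.25 and -0.02. At this age the mean of the interferon and MHC class I list ranged from 7.58 to 7.88 in KI and from 7.79 to 8.08 in WT (difference -0.20, exact permutation p = 0.11, adjusted p = 0.25). The leukocyte markers ranged from 6.26 to 6.75 in KI and from 5.72 to 6.69 in WT. Of the standard counterparts at 44 weeks, Psmb5 differed by 0.35 ± 0.12 (adjusted p = 0.69), Psmb6 by 0.04 ± 0.16 and Psmb7 by -0.02 ± 0.10.

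**Figure D3:**
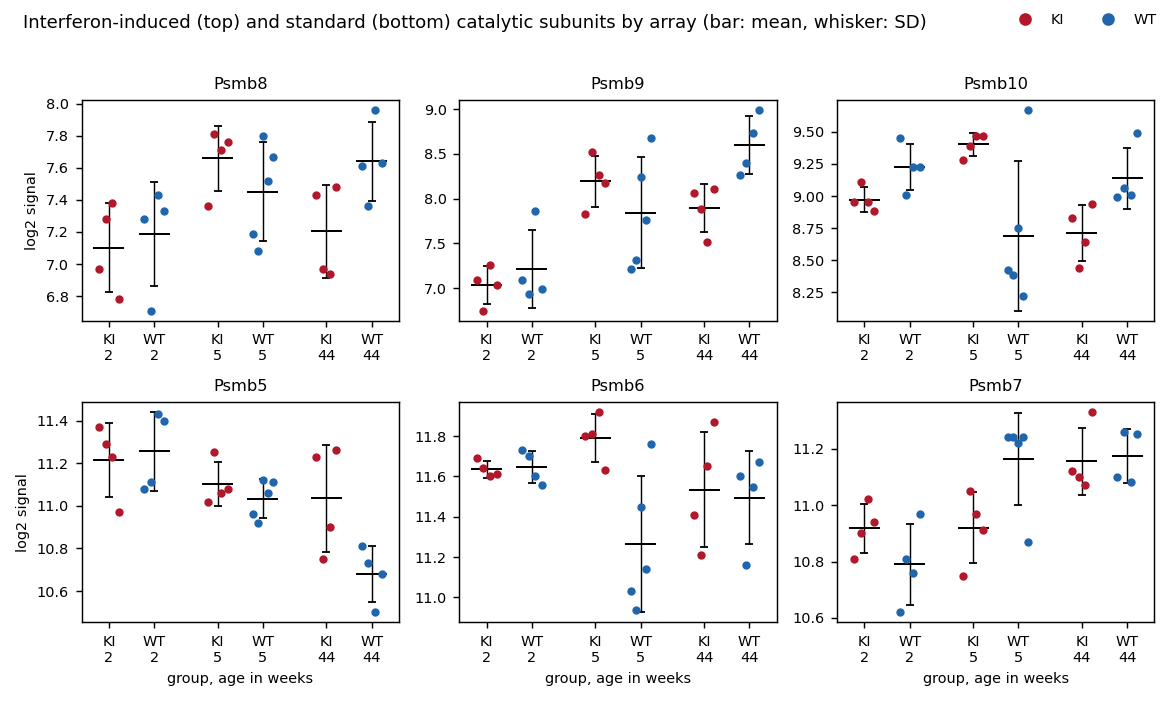
Log2 signal (y axis) of the interferon-induced catalytic subunits Psmb8, Psmb9 and Psmb10 and of the standard subunits Psmb5, Psmb6 and Psmb7 in the 6 groups (x axis), 1 point per array, with mean and SD. At 44 weeks the KI arrays of Psmb9 end at 8.11 and the WT arrays start at 8.27, and at 5 weeks WT array 10 of Psmb10 lies at 9.67, above WT arrays 6 to 9.

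The lid held the lowest difference and a large positive one at 5 weeks. Psmd11, a lid subunit with a role in cap assembly, had 9.50, 9.51, 9.88 and 9.36 in KI, against 10.53, 11.07, 10.73, 10.73 and 10.01 in WT (-1.05 ± 0.25, 0.482-fold, adjusted p = 0.0079). Every KI array was below every WT array, and WT array 10 was the nearest to them. The other probe sets of Psmd11 above the limit gave -0.74 (adjusted p = 0.020), -0.25 (adjusted p = 0.33) and -0.07 (adjusted p = 0.77). At 2 weeks the KI arrays of Psmd11 split widely, with 10.47, 10.92, 9.58 and 9.05, while the WT arrays lay at 10.62, 10.68, 10.77 and 10.52 (-0.64 ± 0.27, adjusted p = 0.89). Arrays 21 and 22 were low there and arrays 19 and 20 were near the WT level. The other probe sets of Psmd11 above the limit gave 0.23, 0.35 and 0.05 at this age. At 44 weeks Psmd11 differed by 0.06 ± 0.27. Psmd13, a structural lid subunit, had 10.12, 9.96, 10.04 and 9.91 in KI at 5 weeks, against 8.85, 8.82, 9.30, 9.08 and 10.17 in WT (0.76 ± 0.21, adjusted p = 0.014). WT array 10 was the brightest of the 9 arrays, and WT arrays 6 to 9 were below all KI arrays. The other 6 lid genes differed by -0.32 to -0.02 and did not pass. Psmd14, the deubiquitinase of the lid, differed by -0.05 ± 0.11. Of the base subunits without ATPase activity, Psmd1, the scaffold that receives ubiquitin receptors, had a small decrease of -0.26 ± 0.09 (adjusted p = 0.045), and the ubiquitin receptors Psmd2 and Psmd4 differed by 0.21 ± 0.12 and 0.26 ± 0.13 without passing.

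Assembly chaperones were among the members with the largest differences. Psmg3, a chaperone of the alpha ring, had 9.26, 9.57, 9.35 and 9.61 in KI at 5 weeks, against 7.86, 8.29, 8.26, 8.36 and 9.63 in WT (0.97 ± 0.22, 1.95-fold, adjusted p = 0.0058). WT array 10 was above all KI arrays and the other 4 WT arrays were below all of them. Psmg2, which pairs with Psmg1 on the alpha ring, had 8.93, 9.14, 8.89 and 9.23 in KI, against 8.43, 8.49, 8.75, 8.48 and 8.65 in WT, with no overlap (0.49 ± 0.11, adjusted p = 0.0054). A second probe set of Psmg2 gave 0.14 (adjusted p = 0.62). Psmg1 differed by -0.08 ± 0.17 and Psmg4 by 0.14 ± 0.17. Psmd9, a chaperone of the ATPase ring, had 8.90, 8.58, 8.48 and 8.57 in KI, against 7.22, 7.61, 7.89, 7.85 and 8.35 in WT (0.85 ± 0.17, 1.80-fold, adjusted p = 0.0033). Here the groups did not overlap, but the second probe set above the limit went the other way with -0.49 (adjusted p = 0.10), and the mean of all its probe sets gave -0.22. Psmd5, a further chaperone of the base, differed by -0.17 ± 0.10.

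Averaged over the 3 ages, 1 member was higher in KI and 1 lower, against 5.32% of all genes (3.99% as higher and 1.33% as lower). These were Psmg2 with 0.24 ± 0.07 (adjusted p = 0.039) and Psmd11 with -0.55 ± 0.15 (adjusted p = 0.041). Leaving out single arrays ended the call of Psmg2 in 18 of 25 cases and that of Psmd11 in 17, with the largest adjusted p at 0.071 and 0.076. With the mean of all probe sets Psmd11 differed by -0.14 (adjusted p = 0.13), and with the tubule covariate by -0.15.

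Of the activators and regulators, 2 of 4 passed at 5 weeks and both were lower in KI, against 7.75% of all genes. Both were outside the rule for naming genes in this comparison. Psme3, the subunit of the nuclear activator ring, had 9.26, 9.58, 9.09 and 9.42 in KI, against 9.47, 10.50, 9.95, 9.94 and 9.36 in WT (-0.51 ± 0.17, adjusted p = 0.039). The groups overlapped through WT arrays 6 and 10, and a second probe set gave 0.11 (adjusted p = 0.64). Psmf1, an inhibitor of the core, was lower by -0.55 ± 0.20 (adjusted p = 0.049), while its other probe sets gave -0.48 (adjusted p = 0.20), -0.82 (adjusted p = 0.028) and, in the other direction, 0.51 (adjusted p = 0.045). In that fit over all probe sets the one used did not pass (adjusted p = 0.068). Psme1 and Psme2, the interferon-induced activator ring that partners the immunoproteasome, differed by 0.33 ± 0.14 (adjusted p = 0.081) and 0.36 ± 0.16 (adjusted p = 0.093). Leaving out single arrays ended the call of Psme3 in 6 of 25 cases and that of Psmf1 in 18, and without WT array 7 the differences were -0.34 (adjusted p = 0.12) and -0.36 (adjusted p = 0.15).

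**Figure D4:**
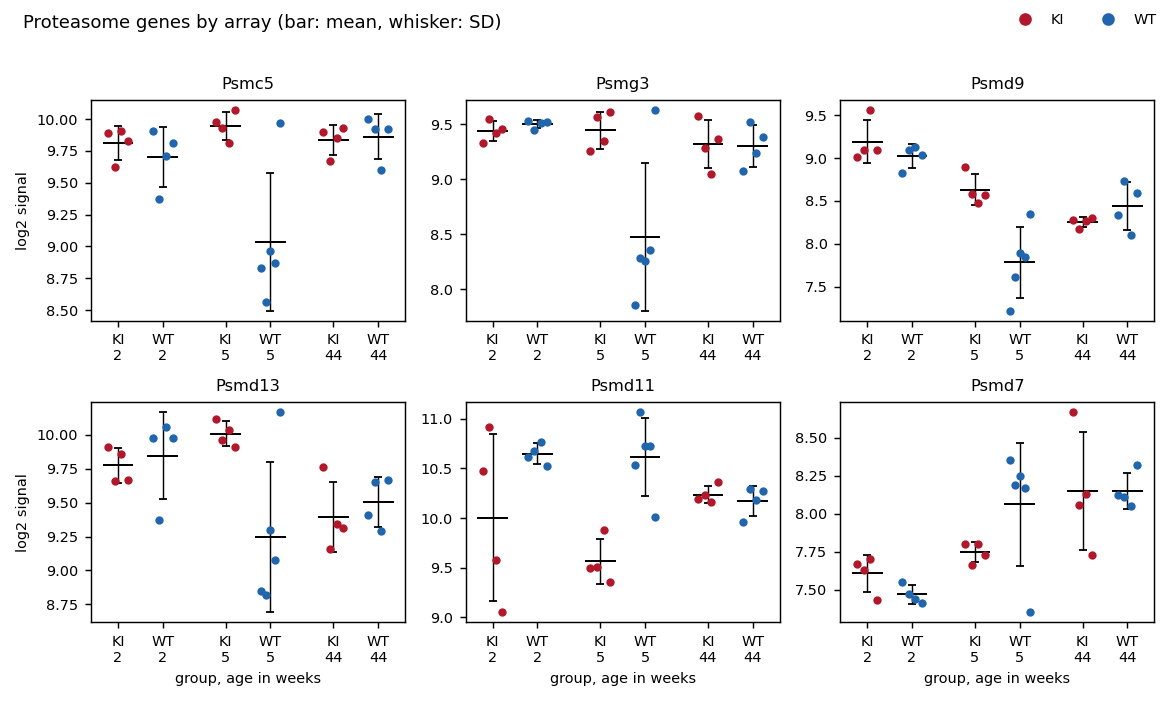
Log2 signal (y axis) of 6 proteasome genes in the 6 groups (x axis), 1 point per array, with mean and SD. For Psmc5, Psmg3 and Psmd13 WT array 10 lies at the KI level at 5 weeks (9.97, 9.63 and 10.17) apart from the other 4 WT arrays, and for Psmd7 it lies below them at 7.35.

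Over all 43 members the mean was 10.10, 10.17, 10.12 and 10.17 on KI arrays 23 to 26, and 9.80, 9.91, 10.10, 9.97 and 10.17 on WT arrays 6 to 10. KI array 23 and WT array 8 were level. The mean of the 12 members called higher, which were selected on this difference, was 10.40, 10.39, 10.35 and 10.41 in KI, and 9.45, 9.50, 9.82, 9.66 and 10.37 in WT. In the other 4 groups it lay between 10.00 and 10.40. Without WT array 10, 22 members were called, and without WT array 7, 9. Shares over all genes are not given here for refits, so their counts do not show whether members moved more than other genes. When each of the 25 arrays was left out in turn, 9 of the 16 calls held every time: Psma7, Psmc3, Psmc4, Psmc5, Psmd9, Psmd11, Psmd13, Psmg2 and Psmg3. Psmb10 was lost without WT array 7 (0.64, adjusted p = 0.051) or WT array 9 (0.60, adjusted p = 0.053), Psmb6 without WT array 7 (0.44, adjusted p = 0.057), Psmb3 without WT array 7 or KI array 23 (0.35 each), Psmb2 in 7 cases and Psmd1 in 14. Without WT arrays 7, 8 and 9 together the precision also fell. The differences of Psmd9 (0.85), Psmg2 (0.51) and Psmb2 (0.49) were then no smaller, that of Psmg3 was 0.70, that of Psmc5 0.55, that of Psmd11 -0.71 and that of Psme3 -0.08. With the 3′ minus 5′ signal of Gapdh as a covariate 9 members were called. With the mean level of all tubule markers, the proximal and the loop, distal tubule and collecting duct lists together, as a covariate 0 were called. In that fit Psmd9 (0.87), Psmg3 (0.95), Psmg2 (0.47) and Psmb2 (0.48) differed about as much as before, Psmc5 by 0.54, Psmc4 by 0.22, Psmd11 by -0.46 and Psme3 by -0.05. In a fit on the 9 arrays of 5 weeks alone 1 member was called. The 18S rRNA control lay between 9.64 and 10.52 on the KI arrays, and at 8.26, 8.61, 8.71 and 8.14 on WT arrays 6 to 9 and 9.97 on WT array 10, and its part in the result was not tested.

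The same WT arrays of 5 weeks enter the comparisons of WT ages, so the values are set side by side. The KI values come from other arrays, though the fit takes the spread of a gene from the arrays of both genotypes. In KI 1 member rose and 1 fell for 5 against 2 weeks, against 13.7% of all genes called (5.4% up and 8.29% down). In WT 4 rose and 12 fell, against 33.9% (12.2% up and 21.7% down). For 44 against 5 weeks, 2 rose and 3 fell in KI, against 16.8% (8.11% up and 8.64% down), and 8 rose and 4 fell in WT, against 20.1% (11.3% up and 8.85% down). Psmc5 differed by 0.13 ± 0.20 (5 against 2 weeks) and -0.11 ± 0.20 (44 against 5 weeks) in KI. In WT it fell by 0.66 ± 0.19 (adjusted p = 0.0095) and then rose by 0.82 ± 0.19 (adjusted p = 0.0048). Over the same steps Psmc3 differed by -0.04 and 0.10 in KI, and by -0.57 and 0.50 in WT. The values of Psmg3 were 0.01 and -0.12 in KI, and -1.02 and 0.83 in WT. Those of Psma7 were 0.02 and 0.03 in KI, and -0.56 and 0.53 in WT. All the WT values of these 4 genes passed and none of the KI values did. Psmd9 fell in KI by 0.56 at 5 against 2 weeks (adjusted p = 0.042), with -0.38 at 44 against 5 weeks (adjusted p = 0.15). The KI call at 5 against 2 weeks was lost in 6 of 25 cases when single arrays were left out. With the mean of all probe sets that KI value was -0.42 (adjusted p = 0.13). The WT values of Psmd9, -1.24 and 0.66, both passed. Its second bright probe set gave 0.11 and -0.56 for these WT steps, and the mean of all its probe sets -0.05 (adjusted p = 0.85) and 0.20 (adjusted p = 0.44). Psmc4 had 0.21 and -0.14 in KI, and -0.32 and 0.34 in WT, and Psmg2 had 0.00 and -0.08 in KI, and -0.34 and 0.34 in WT. Leaving out single arrays ended the WT calls of Psmc4 in 5 of 25 cases at each step and those of Psmg2 in 2 and 6. A second bright probe set of Psmg2 gave 0.11 and 0.10 in WT. The mean of its probe sets gave -0.11 (adjusted p = 0.52) and 0.22 (adjusted p = 0.23). Called in WT for 5 against 2 weeks but not for 44 against 5 weeks were falls of Psmb3 by 0.46, Psmb10 by 0.55, Psmd13 by 0.60, Psme1 by 0.38 and Psmb2 by 0.37. Leaving out single arrays ended the call of Psmb2 in 21 of 25 cases, that of Psmb10 in 7 and those of Psmd13 and Psme1 in 6 each. Rises of Psmb7 by 0.37, Psmd1 by 0.28, Psmd7 by 0.60 and Psmf1 by 0.72 were likewise called there. Of these, Psmd7 was lost with the mean of all probe sets (0.21, adjusted p = 0.092), Psmd1 was lost in 2 of 25 cases, and another bright probe set of Psmf1 passed in the other direction (-0.61, adjusted p = 0.011). Called in WT for 44 against 5 weeks but not before were falls of Psma5 by 0.53, Psmb5 by 0.35, Psmd3 by 0.56 and Psme3 by 0.65 and a rise of Psmb9 by 0.76. When single arrays were left out, the call of Psmb9 was lost in 5 of 25 cases and that of Psmb5 in 4. A second bright probe set of Psme3 gave -0.01 (adjusted p = 0.97), and the mean of its probe sets -0.33 (adjusted p = 0.067). Without WT arrays 7, 8 and 9, 1 member was called for 5 against 2 weeks and 2 for 44 against 5 weeks in WT.

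In KI, Psmb9 rose by 1.16 ± 0.27 for 5 against 2 weeks (adjusted p = 0.0064), and the arrays of the 2 ages did not overlap on the probe set used. Its other bright probe sets gave -0.07 and 0.05, and the mean of all of them 0.38 (adjusted p = 0.14). For 44 against 5 weeks in KI, Psmd3 fell by 0.65 (adjusted p = 0.0022), Psmb2 by 0.70 (adjusted p = 0.0035) and Psmb10 by 0.69 (adjusted p = 0.030), and Psmd12 rose by 0.39 (adjusted p = 0.017) and Psmd1 by 0.32 (adjusted p = 0.027). Leaving out single arrays ended the calls of Psmb10 and Psmd1 in 5 of 25 cases each and that of Psmd12 in 2, with the largest adjusted p at 0.09, 0.074 and 0.065.

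A comparison of 44 against 2 weeks uses none of the 5-week arrays for its values and was made in each genotype. The comparison was added after the data had been seen. In KI 6 members rose and 4 fell, against 30.2% of all genes called (14.3% up and 15.9% down). In WT 6 rose and 5 fell, against 31.6% (13.6% up and 18% down). The KI and WT values came from separate arrays, but both comparisons took the spread of a gene from the same fit over all arrays. Their calls are therefore not independent. Passing in both, in the same direction, were 8 members, 80.0% of those called in KI and 72.7% of those called in WT. Over all genes the shares were 73.9% and 70.7%. The 5 shared rises were Psma6, Psmb9, Psmd7, Psmd12 and Psmf1, and the 3 shared falls were Psma5, Psmd3 and Psmd9. With the mean of all probe sets 3 of the 8 no longer passed in both genotypes. Psmd9 was then -0.23 in KI (adjusted p = 0.35) and 0.15 in WT (adjusted p = 0.55). Psmf1 was 0.24 in KI (adjusted p = 0.26) and 0.26 in WT (adjusted p = 0.22). Psmb9 was 0.26 in KI (adjusted p = 0.25) and passed in WT with 0.48 (adjusted p = 0.032). Markers of cell types moved over the same span. Podocyte markers rose in 7 of 11 (KI) and 6 of 11 (WT), leukocyte markers in 8 and 7 of 14, and those of the loop, distal tubule and collecting duct in 1 and 7 of 13, while 6 of 8 mesangial and smooth muscle markers fell in either genotype. Their part in the proteasome values was not tested.

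Psmd3, a structural lid subunit, fell most steadily. At 44 weeks it had 9.36, 8.97, 9.03 and 9.45 in KI, against 10.28, 9.93, 10.00 and 9.76 at 2 weeks (-0.79 ± 0.13, 0.578-fold, adjusted p = 0.00012). In WT it had 9.22, 9.53, 9.18 and 9.48 at 44 weeks, against 10.12, 9.95, 10.28 and 10.20 at 2 weeks (-0.79 ± 0.13, 0.580-fold, adjusted p = 9.5e-05). In either genotype every array of 44 weeks was below every array of 2 weeks, and the call held when any array was left out. Psmd9 had 8.28, 8.17, 8.26 and 8.30 in KI at 44 weeks, against 9.01, 9.10, 9.56 and 9.10 at 2 weeks (-0.94 ± 0.18, adjusted p = 0.00053), and it fell by 0.58 in WT (adjusted p = 0.016). Its second bright probe set gave -0.79 in KI and -0.45 in WT, and another, below the filter limit, gave 1.04 and 1.48. The mean of all its probe sets turned the WT value to 0.15. Psma5, of the alpha ring, had 9.88, 9.89, 9.74 and 10.02 in KI at 44 weeks, against 10.29, 10.18, 10.27 and 10.10 at 2 weeks (-0.33 ± 0.10, adjusted p = 0.018). In WT it fell by 0.48 ± 0.10 (adjusted p = 0.0010). The KI call of Psma5 was lost without KI array 33 (-0.28, adjusted p = 0.065), 19 or 21, and the WT call of Psmd9 without WT array 17 (-0.47, adjusted p = 0.069).

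Psmb9 was brighter at 44 than at 2 weeks in both genotypes on the probe set used, and in KI its mean was highest at 5 weeks. Its means at 2, 5 and 44 weeks were 7.04, 8.20 and 7.90 in KI, and 7.22, 7.84 and 8.60 in WT. The difference of 44 against 2 weeks was 0.86 ± 0.27 in KI (1.81-fold, adjusted p = 0.019) and 1.38 ± 0.27 in WT (2.61-fold, adjusted p = 0.00049), and in either genotype the arrays of the ages did not overlap. The KI call was lost without KI array 20 (0.76, adjusted p = 0.059) or 34 (0.79, adjusted p = 0.052). The other probe sets of Psmb9 above the limit gave 0.07 and -0.15 in KI and 0.30 and -0.26 in WT. Psmb8 differed by 0.10 ± 0.19 in KI and 0.45 ± 0.19 in WT (adjusted p = 0.74 and 0.079), and Psmb10 by -0.26 ± 0.21 and -0.10 ± 0.21. Psmb5 differed by -0.18 ± 0.12 in KI (adjusted p = 0.28) and fell by 0.57 ± 0.12 in WT (adjusted p = 0.0011). Psmb7 differed by 0.24 ± 0.10 in KI (adjusted p = 0.085) and rose by 0.38 ± 0.10 in WT (adjusted p = 0.0068). Leukocyte markers were also brighter at 44 than at 2 weeks, with means of 6.54 and 5.98 in KI and of 6.35 and 5.78 in WT.

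Psmd7, a lid subunit that pairs with the deubiquitinase Psmd14, had 8.67, 8.06, 8.13 and 7.73 in KI at 44 weeks, against 7.67, 7.63, 7.70 and 7.43 at 2 weeks (0.54 ± 0.18, adjusted p = 0.024). In WT it had 8.12, 8.11, 8.05 and 8.32 at 44 weeks, against 7.55, 7.47, 7.44 and 7.41 at 2 weeks (0.68 ± 0.18, adjusted p = 0.0051). Without KI array 31 the difference in KI was 0.36 (adjusted p = 0.11) and without KI array 22 it was 0.48 (adjusted p = 0.067). Psmf1 rose by 0.71 ± 0.21 in KI (adjusted p = 0.013) and 0.64 ± 0.21 in WT (adjusted p = 0.021), but its other probe sets gave 0.15, 0.52 and -0.42 in KI and 0.03, 0.71 and -0.35 in WT. Smaller rises in both genotypes were those of Psma6 (0.27 each) and the lid subunit Psmd12 (0.33 in KI and 0.29 in WT). Psma6 was lost without KI array 34 (0.24, adjusted p = 0.057) or WT array 18 (0.24, adjusted p = 0.051). Psmd12 was lost in 3 of 25 cases in KI and 4 in WT, Psmf1 in 1 and 4, and Psme3 in 5 in WT. Psmb2 fell by 0.58 in KI (adjusted p = 0.0058) and Psmd1 rose by 0.37 (adjusted p = 0.0059), with -0.36 and 0.25 in WT (adjusted p = 0.070 and 0.051). Psme3 differed by -0.39 in KI (adjusted p = 0.11) and fell by 0.52 in WT (adjusted p = 0.033). With Y-linked signal as a covariate 9 members were called in KI and 8 in WT, and with the tubule markers 10 in each.

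**Figure D5:**
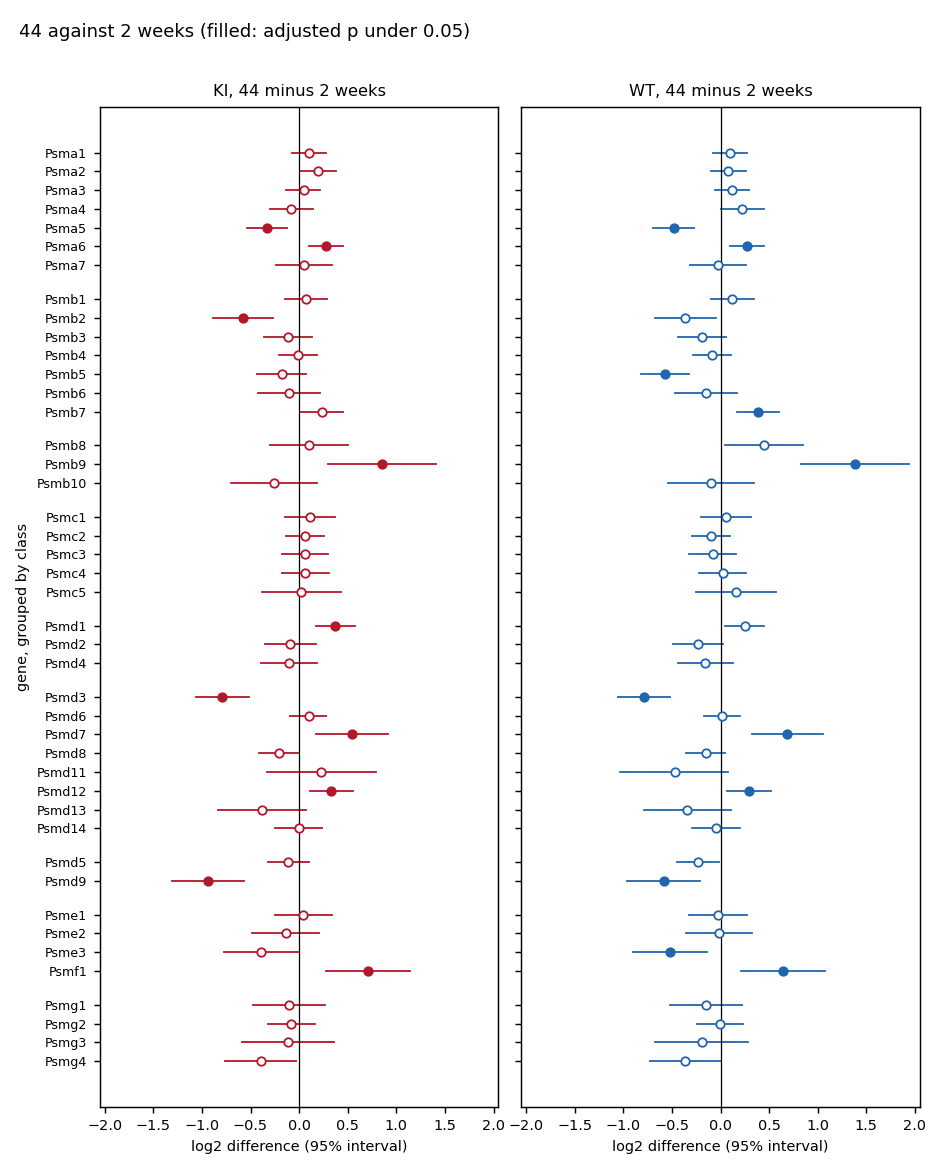
Log2 difference of 44 minus 2 weeks (x axis) for the 43 tested proteasome genes, grouped by class down the page, in KI and in WT. Points are limma estimates, lines their 95% intervals, and filled points passed at an adjusted p under 0.05. Psmd3 lies at -0.79 in both panels and Psmb9 at 0.86 in KI and 1.38 in WT.

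Genes that work with the proteasome but are not part of it were taken from a list of 36, of which 25 were tested. At 5 weeks 1 was higher and 6 were lower in KI, against 14.3% and 7.75% of all genes, in a comparison with the same WT arrays of 5 weeks. The median of the 25 was -0.11, against 0.06 over all genes. Stub1, a chaperone-linked ubiquitin ligase, was higher by 0.62 ± 0.19 (adjusted p = 0.023). The shuttle factors Ubqln2 and Rad23b, which carry ubiquitinated proteins to the proteasome, were lower by -0.45 ± 0.11 (adjusted p = 0.0087) and -0.64 ± 0.17 (adjusted p = 0.014). Ufd1, a cofactor of the segregase that extracts proteins for degradation, was lower by -0.36 ± 0.10 (adjusted p = 0.016), the conjugating enzyme Ube2l3 by -0.30 ± 0.10 (adjusted p = 0.035) and the proteasome-bound ligase Ube3c by -0.39 ± 0.13 (adjusted p = 0.037). At 2 and 44 weeks 0 of the 25 passed in either direction, with medians of 0.01 at each age.

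For 44 against 2 weeks, 7 of the 25 pathway genes rose and 2 fell in KI, and 6 rose and 3 fell in WT, against 30.2% and 31.6% of all genes called. Usp14, the deubiquitinase that binds the cap, rose by 0.50 in KI (adjusted p = 0.0095) and 0.62 in WT (adjusted p = 0.0017). Ubqln2 rose by 0.55 in KI (adjusted p = 0.0012) and 0.51 in WT (adjusted p = 0.0022), and Ube3c fell by 0.57 in KI (adjusted p = 0.0035) and 0.55 in WT (adjusted p = 0.0039). Nfe2l1, the transcription factor that induces proteasome genes when proteasome activity is short, was higher at 5 than at 2 weeks by 0.50 in KI (adjusted p = 0.022) and 0.44 in WT (adjusted p = 0.014). It was lower at 44 than at 5 weeks by -0.50 in KI (adjusted p = 0.019) and -0.39 in WT (adjusted p = 0.044, outside the rule for naming genes there). Between KI and WT it differed by -0.14, -0.09 and -0.21 at 2, 5 and 44 weeks. Of the 16 interferon and MHC class I genes, 5 rose and 0 fell in KI for 44 against 2 weeks, and 5 rose and 1 fell in WT, against 14.3% up and 15.9% down over all genes in KI and 13.6% and 18% in WT. H2-D1, a class I heavy chain that presents peptides made by the proteasome, rose by 1.31 ± 0.21 in KI (adjusted p = 0.00011) and 1.56 ± 0.21 in WT (adjusted p = 1.2e-05). Nlrc5, a transactivator of class I genes, rose by 1.14 in KI (adjusted p = 0.032) and 1.70 in WT (adjusted p = 0.0022), the interferon-induced GTPase Gbp2 by 0.84 and 0.95, and Igtp by 0.64 and 0.74, while the transcription factor Irf8 fell by 1.22 in WT (adjusted p = 0.0014).

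Promoters were searched for 2 short motifs, since Nfe2l1 binds antioxidant response elements and interferon-driven factors bind interferon-stimulated response elements. RefSeq windows of 300 bases, from 250 before to 50 after the start site (build GRCm38.p6), were at hand for 37 of the 45 members, and both strands were read. The antioxidant response element core TGACNNNGC stood in 4 of the 37, Psmb5, Psmb6, Psmd9 and Psmd12, which is 10.0% of their 40 windows, against 12.4% of all 32851 windows. The core of the interferon-stimulated response element (GAAA, any 2 bases, GAAA) stood in 5 of the 37, Psmb3, Psmd4, Psmd9, Psme1 and Psmg4, which is 12.5% of the 40 windows, against 3.44% of all windows. Of the 12 members called higher in KI at 5 weeks, 9 had a window, and each motif stood in 2 of the 9. Of the 27 not called, 23 had a window, with 2 for the antioxidant and 3 for the interferon element. The windows of Psmb6 and Psmd9, called at 5 weeks, of Psmb5, called by age in WT, and of Psme1, the partner of the immunoproteasome, are shown with 1 match each in capitals, of the antioxidant element in Psmb6, Psmd9 and Psmb5 and of the interferon element in Psme1. The interferon match of Psmd9 lies upstream in the same window and is left in lower case. They lie at chr11:70525107-70525406 (plus strand), chr5:123227940-123228239 (plus strand), chr14:54617946-54618245 (minus strand) and chr14:55578244-55578543 (plus strand, with the match on the other strand). A match is a string of letters and no evidence of binding.
Psmb6: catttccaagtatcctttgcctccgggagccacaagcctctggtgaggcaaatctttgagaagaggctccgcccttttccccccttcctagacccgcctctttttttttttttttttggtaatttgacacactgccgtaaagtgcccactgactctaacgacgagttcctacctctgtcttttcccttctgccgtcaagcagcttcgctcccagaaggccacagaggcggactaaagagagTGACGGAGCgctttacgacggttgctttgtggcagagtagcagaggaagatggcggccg
Psmd9: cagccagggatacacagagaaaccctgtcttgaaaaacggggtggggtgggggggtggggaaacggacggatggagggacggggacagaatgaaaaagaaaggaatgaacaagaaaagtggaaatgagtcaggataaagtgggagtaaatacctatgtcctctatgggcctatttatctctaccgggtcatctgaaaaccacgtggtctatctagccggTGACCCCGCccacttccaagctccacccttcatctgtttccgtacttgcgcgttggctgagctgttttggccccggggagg
Psmb5: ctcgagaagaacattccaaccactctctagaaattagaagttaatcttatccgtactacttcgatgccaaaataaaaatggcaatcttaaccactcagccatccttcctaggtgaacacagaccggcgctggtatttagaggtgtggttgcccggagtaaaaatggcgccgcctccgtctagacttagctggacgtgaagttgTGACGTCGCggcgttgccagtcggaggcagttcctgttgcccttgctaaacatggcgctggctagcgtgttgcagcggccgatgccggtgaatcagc
Psme1: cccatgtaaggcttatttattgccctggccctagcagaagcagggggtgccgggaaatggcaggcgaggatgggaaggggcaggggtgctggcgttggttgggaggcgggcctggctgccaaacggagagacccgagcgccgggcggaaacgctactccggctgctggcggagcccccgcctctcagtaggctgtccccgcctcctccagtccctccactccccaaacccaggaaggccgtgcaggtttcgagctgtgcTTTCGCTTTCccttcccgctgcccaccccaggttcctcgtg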

How the data were processed

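Polysomal RNA was, per the labels, amplified once with the NuGEN WT-Ovation kit and hybridised to an Affymetrix mouse array. The authors' deposited table holds log2 signals, ranging from 1.86 to 13.62, with array medians from 4.82 to 4.99. Their summarization and normalization were not stated in the labels or the file. The platform annotation gave 1 gene symbol to 28898 of 45141 probe sets and several to 551, and 15692 were unnamed in it. Genes (17097) with several probe sets were represented by the brightest on average. The dimmest 30% (mean under 4.603) were not tested, which left 11968.

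Group means were fitted with limma 3.58.1 in R 4.3.3 over all 25 arrays (19 residual degrees of freedom, 3.05 prior ones). A gene passed when its p, adjusted by Benjamini-Hochberg over all tested genes, was under 0.05 with no minimum fold. Differences are on the log2 scale with moderated standard errors and 95% intervals. Marker lists were compared as means per array with exact permutation tests. The fit was tested on simulated data. The members, lists and tests were chosen with earlier results of these data known. Genes were named by a rule: the exchange pairs Psmb5 and Psmb8, Psmb6 and Psmb9, Psmb7 and Psmb10, with Psme1, Psme2, Psmd11, Psmc4 and Psmd8 in every comparison, up to 12 members that passed per comparison by p (or, where none passed, the 3 of smallest p), and up to 6 that passed of each of the other lists. The 44 against 2 week comparisons and the Gapdh covariate were added after seeing the data. Alternatives covered normalization, filters, probe sets, the prior, array weights, covariates and leaving out arrays. The number of arrays limits the precision.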

Additional observations from a re-analysis of the deposited data

Results flagged for a closer look

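In 13 of 198 sets of 4 or 5 arrays (6.57%, where chance gives about 5% of independent sets) a value lay far from the others of its group by Dixon's test. Genes of the same array are not independent. The flagged values were spread unevenly over the groups, with none in KI at 5 or 44 weeks. In WT at 5 weeks, array 10 held 5 of them: Psmb7 at 10.87 (nearest other array 11.22), Psmc5 at 9.97 (8.96), Psmd3 at 10.16 (9.90), Psmd7 at 7.35 (8.17) and Psmg3 at 9.63 (8.36). In the same group Psma4 was 10.14 on array 8 (9.98) and Psmf1 was 9.23 on array 7 (8.43). At 2 weeks Psmd9 was 9.56 on KI array 21 (9.10), Psmd13 was 9.37 on WT array 2 (9.98) and the mean of the cap ATPases was 10.53 on the same array (10.80). In WT at 44 weeks Psmb10 was 9.49 on array 18 (9.06), Psme1 was 10.49 on array 15 (10.99) and Psmg2 was 8.60 on array 17 (8.95). No explanation of these values was tested.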

How the results depend on the processing

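Counts are of the 43 tested members called. They stand without the share over all genes in the same refit, so they do not show whether members moved more than other genes. At 5 weeks the 16 calls between KI and WT became 1 with only the arrays compared, 0 with the tubule covariate, 9 with the Gapdh covariate and 0 without WT arrays 7, 8 and 9, and at 44 weeks 0 became 2 with array weights. The 2 calls averaged over ages became 1 with centred arrays, 1 with no filter, 0 with the mean of all probe sets, 7 with array weights, 0 with the tubule covariate, 7 with the Gapdh covariate and 0 without WT arrays 7, 8 and 9. In KI, 2 calls for 5 against 2 weeks became 1 with no filter, 0 with the mean of probe sets, 4 with array weights, 4 with only the arrays compared, 1 with the Y-linked covariate and 1 without WT arrays 7, 8 and 9. The 5 calls for 44 against 5 weeks became 8 with quantile normalization, 12 with array weights and 8 with only the arrays compared. For 5 against 2 weeks in WT, 16 became 5 with only the arrays compared, 6 with the Gapdh covariate and 1 without WT arrays 7, 8 and 9. For 44 against 5 weeks in WT, 12 became 19 with array weights and 2 with each of only the arrays compared, the tubule covariate and leaving out WT arrays 7, 8 and 9. Array weights gave 15 and 18 calls for the interactions of 5 against 2 and 44 against 5 weeks, where the fit without weights gave 0. The lid mean differed at 5 weeks by -0.12, by -0.18 with centred arrays, -0.02 with the mean of probe sets and -0.08 without WT arrays 7, 8 and 9. With the mean of all probe sets Psmd9 changed direction, to -0.22 at 5 weeks and 0.15 for 44 against 2 weeks in WT. The cause of these changes was not tested.

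Leaving out each array in turn gave 0 calls at 2 and at 44 weeks, 9 to 22 at 5 weeks and 0 to 8 averaged over ages. In KI it gave 1 to 3 for 5 against 2, 2 to 8 for 44 against 5 and 6 to 11 for 44 against 2 weeks, and in WT 11 to 21, 8 to 18 and 7 to 13. The interactions gave 0 to 13 and 0 to 16, the highest without WT array 10 of 5 weeks. At 2 weeks the mean difference of KI minus WT ran from 0.00 to 0.07 for the alpha ring, -0.03 to 0.02 for the beta ring, -0.28 to -0.08 for the immunoproteasome, -0.08 to 0.03 for the cap ATPases, -0.13 to 0.00 for the lid. At 5 weeks the mean difference of KI minus WT ran from 0.02 to 0.07 for the alpha ring, 0.14 to 0.24 for the beta ring, 0.33 to 0.60 for the immunoproteasome, 0.37 to 0.55 for the cap ATPases, -0.13 to -0.11 for the lid. At 44 weeks the mean difference of KI minus WT ran from -0.01 to 0.06 for the alpha ring, -0.03 to 0.06 for the beta ring, -0.60 to -0.44 for the immunoproteasome, 0.00 to 0.10 for the cap ATPases, -0.05 to 0.04 for the lid.

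No paired analysis was possible because no number in the titles is shared between groups. The unknown normalization, the amplification, the dim signal of some probe sets and 4 or 5 arrays per group limit these values.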
